A study of Mus musculus with 4 samples.

Results

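The 10 genes described here are immediate-early genes of the AP-1 and EGR groups: the FOS members Fos and Fosb, the JUN members Jun, Junb and Jund, the zinc-finger genes Egr1, Egr2 and Egr3, and the early-response genes Ier2 and Ier3. They were taken by gene symbol from the platform annotation, and all 10 were found among the 19938 genes of the arrays, each with 1 probe set. RNA came from bone marrow cells of C57BL/6 (B6) mice aged 8 weeks, sorted as Lin-c-Kit+Sca-1+, a gate that takes in multipotent progenitors beside haematopoietic stem cells (HSCs). WT mice and mice labelled Hif1a-/- gave 2 arrays each, labelled biological replicates 1 and 2. Hif1a encodes the oxygen-regulated subunit of HIF-1. The driver or method of the deletion, its target exon and any pooling of mice are not given in the sources used here.

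Immediate-early genes are transcribed within minutes of a stimulus, without new protein synthesis, when ERK, JNK and p38 kinases activate factors already bound at their promoters, such as SRF with its ELK partners, CREB and ATF2. FOS proteins bind DNA as dimers with JUN proteins and form AP-1, which recognises TGACTCA. JUN proteins can also pair with each other. EGR proteins are zinc-finger factors that bind GC-rich sites, and EGR1 is known as a regulator of quiescence and retention of mouse HSCs in their niche. The same genes respond to handling and enzymatic or mechanical stress during cell isolation, which is why they are often watched in sorted cells.

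The promoter windows of the members are shown first, because immediate-early induction is read out through short sites close to the start of transcription. RefSeq windows (GRCm38.p6) were searched for 7 of the 10 genes: Fos, Fosb, Jun, Junb, Jund, Egr2 and Ier3. Egr3 and Ier2 had no window. Egr1 was not searched, because member windows on its chromosome were left out, while the set of all windows kept that chromosome. In the 250 bases before each start, both strands were searched for the AP-1 site TGACTCA, the CRE TGACGTCA, the CRE core TGACG (which lies inside the full CRE), the variant TGACATCA, the EGR site GCGNGGGCG, the CArG box bound by SRF, and TATAAA. The last 150 bases before the start are printed 5′ to 3′ on the gene's strand, with matches to these motifs in capitals. Fos is shown as the member with the largest difference between arrays, Fosb and Egr2 for their EGR and CArG matches, Jun for its variant site, and Ier3 as the member whose signal moved the other way. They lie at chr12:85473740-85473889 on the plus strand (Fos), chr7:19310046-19310195 on the minus strand (Fosb), chr4:95052223-95052372 on the minus strand (Jun), chr10:67537719-67537868 on the plus strand (Egr2) and chr17:35821563-35821712 on the plus strand (Ier3).
Fos: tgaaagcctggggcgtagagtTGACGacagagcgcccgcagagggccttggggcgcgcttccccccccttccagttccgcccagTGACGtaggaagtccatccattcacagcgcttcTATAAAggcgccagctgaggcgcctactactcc
Fosb: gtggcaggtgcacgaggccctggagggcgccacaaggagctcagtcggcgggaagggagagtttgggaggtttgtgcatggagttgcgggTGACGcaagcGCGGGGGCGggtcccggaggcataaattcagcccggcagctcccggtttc
Jun: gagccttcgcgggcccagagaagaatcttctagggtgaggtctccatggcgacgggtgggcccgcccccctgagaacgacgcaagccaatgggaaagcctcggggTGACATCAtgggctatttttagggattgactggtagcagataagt
Egr2: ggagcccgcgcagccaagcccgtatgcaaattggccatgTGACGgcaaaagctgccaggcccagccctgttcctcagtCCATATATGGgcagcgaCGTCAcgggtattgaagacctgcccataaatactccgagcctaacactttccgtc
Ier3: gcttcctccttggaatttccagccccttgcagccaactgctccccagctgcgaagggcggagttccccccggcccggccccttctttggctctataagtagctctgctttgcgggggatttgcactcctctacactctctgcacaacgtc

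In Fos the CRE core lay at −129 to −125 and at −66 to −62, and TATAAA at −33 to −28, counting the base before the start as −1. Fosb had a CRE core at −60 to −56 and the EGR site at −50 to −42, and Jun the variant TGACATCA at −45 to −38. Egr2 has 5 starts in the table, and 4 of these windows held a CArG box, 3 of them the same one, CCATATATGG, which is the one shown. Among the 7 members, TGACG was found in 4 (Fos, Fosb, Junb and Egr2) and was present in 17.8% of all 32851 windows of that length. A member was counted if any of its windows matched, and Egr2 had 5. The counts per gene are therefore not directly comparable with the shares per window. The EGR site was found in 1 member against 4.70% of windows, the CArG box in 1 against 1.47%, TGACATCA in 1 against 2.93% and TATAAA in 1 against 12.4%. No searched member window held TGACTCA (4.46% of windows) or the full CRE (1.55%). The hypoxia response core, searched as ACGTG and GCGTG because HIF-1 binds it, was found in 3 members (Jund, Egr2 and Ier3, against 16.6% of windows) and in 2 members (Fos and Junb, against 28.2%). A match is only a run of letters in this window.

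The signal of Hif1a was 10.37 in WT array 1, 10.99 in WT array 2, 10.58 in Hif1a-/- array 1 and 10.64 in Hif1a-/- array 2, on the log2 scale used throughout. Its probe set may lie outside the deleted part, so it cannot check the labels, and directions between genotypes follow the labels. Arrays of the same number resembled each other: all 12 neutrophil, all 9 mast cell and basophil and all 9 monocyte and macrophage markers measured were higher in both arrays numbered 2, by medians of 2.01, 1.84 and 1.02 log2 units. The summed linear signal of the neutrophil markers was 39175 and 32448 in the arrays numbered 1 (WT, then labelled Hif1a-/-) and 74661 and 93119 in those numbered 2. Stem cell markers went the other way, with 12 of 13 lower in both arrays numbered 2. Their summed linear signal was 30870 and 27865 in the arrays numbered 1 and 14897 and 9521 in those numbered 2. Kit, which defines the gate, was 12.57 and 12.37 in the arrays numbered 1 and 11.51 and 11.32 in those numbered 2, and Ly6a was not matched. The labels do not say what the number stands for, nor whether the replicates came from separate mice, so p-values measure the spread between these arrays. In sorted bulk RNA, a change in the mix of cells and a change per cell cannot be told apart.

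None of the 10 members separated the genotypes. For all 10 genes the values of the WT arrays overlapped those of the arrays labelled Hif1a-/-. Of all genes, 24.5% had both arrays labelled Hif1a-/- above or below both WT arrays. A gene whose replicate numbers do not overlap must overlap between genotypes. That fixed the outcome for the 8 members above and the 1 below in both arrays numbered 2, so their overlap is no separate result on genotype. In limma, with Benjamini-Hochberg adjustment over 19938 genes, 0 of the 10 members passed an adjusted p of 0.05, and the percentage of all genes called was 0. At an unadjusted p of 0.05, 0 members and 145 of all genes would pass. The members' mean differences ran from −0.33 (Jun) to 0.26 (Egr3), 5 were higher and 5 lower in the mean, and their median was 0.00, as was that of all genes. B cell markers did differ in these arrays: 8 of 10 were higher in both arrays labelled Hif1a-/-, with summed linear signals of 10665 and 10390 in WT and 25602 and 16080 under the Hif1a-/- label, and their part in the members' values was not tested. The members' result does not show that the genotypes are alike: for Fos the 95% interval of the difference ran from −1.38 to 1.69. The genotype fit had no term for replicate number. Differences between the numbers, 1.06 log2 units for Fos, thus entered the spread behind this interval and behind the genotype SEs given below.

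**Figure D1:**
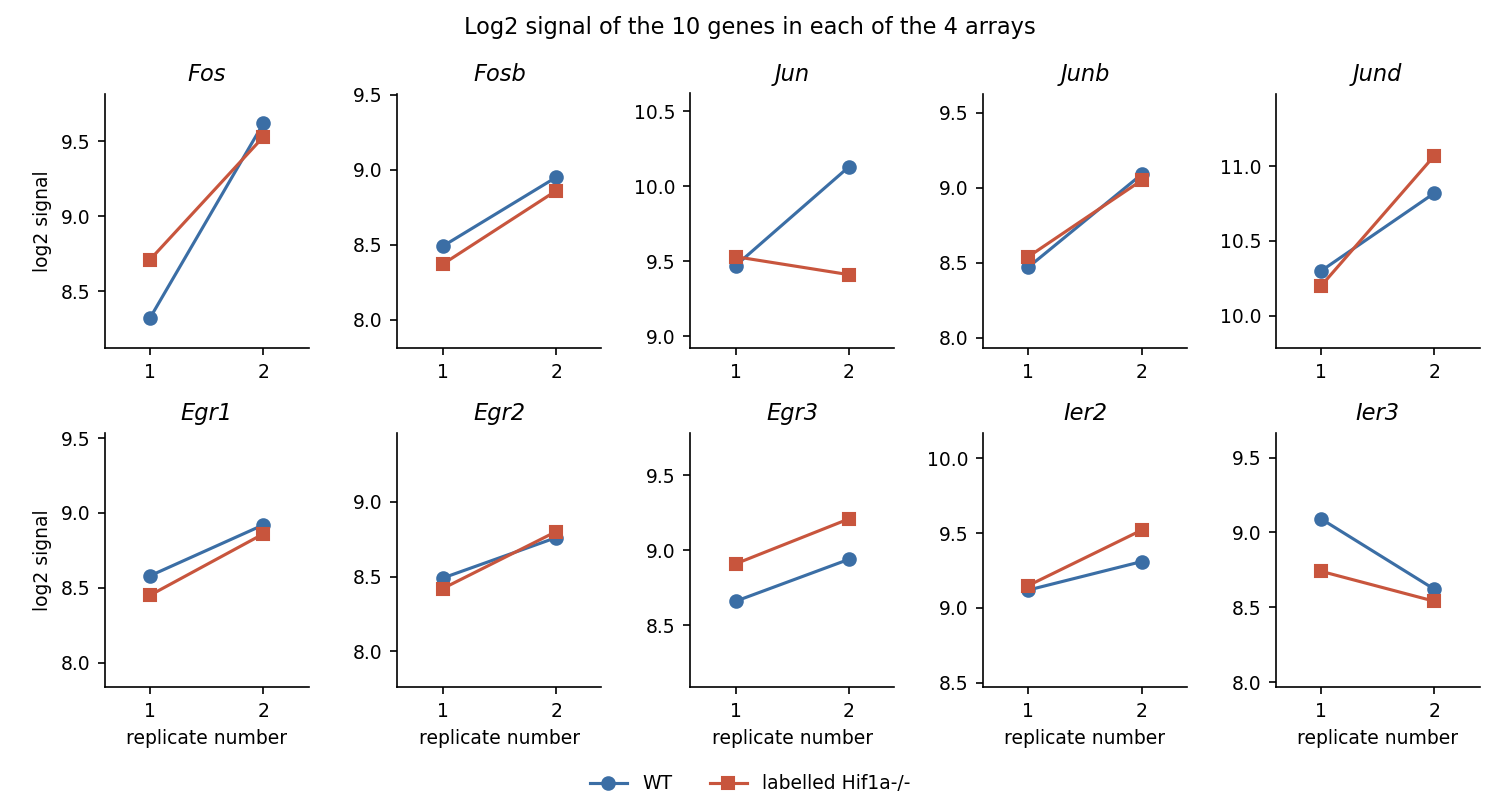
Log2 signal (vertical axis, each panel spanning the same range) of the 10 genes in the arrays numbered 1 and 2 (horizontal axis), with circles for WT, squares for arrays labelled Hif1a-/-, and lines that only join the arrays of a genotype. Symbols of both genotypes lie close together within a number for most genes, and Fos spans 8.32 to 9.62, while Jun is high in WT array 2 alone (10.13).

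Fos, the prototype AP-1 subunit, had the largest difference between the numbers among the members, although differences between members were not tested. Its signal was 8.32 in WT array 1, 9.62 in WT array 2, 8.71 in array 1 labelled Hif1a-/- and 9.53 in array 2 labelled Hif1a-/-. Both arrays numbered 2 lay above both numbered 1 by more than the arrays of a number differed from each other. The difference of number 2 minus number 1, with genotype as a term, was 1.06 log2 units (SE 0.17, 95% interval 0.63 to 1.48), or 2.08-fold, and passed in limma with an adjusted p of 0.0311. Fos was the single member of 10 that passed, where 5.56% of all genes did. The call was lost without WT array 1, where the 3 other arrays, fitted without a genotype term, gave 0.86 with an adjusted p of 0.135. It was also lost when each of the 35556 probe sets was tested on its own, a setting under which 0 genes passed. By genotype, Fos had a mean of 8.97 ± 0.92 (SD, n = 2) in WT and 9.12 ± 0.58 (SD, n = 2) in the arrays labelled Hif1a-/-, a difference of 0.15 (SE 0.55) that was 0.39 within number 1 and −0.09 within number 2.

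Fosb, which encodes a second FOS protein able to dimerise with JUN, was 8.49 and 8.95 in WT arrays 1 and 2. In the arrays labelled Hif1a-/- it was 8.37 and 8.86. The arrays numbered 2 were the higher ones in both genotypes, by 0.46 and 0.49. Over both genotypes the difference was 0.48 (SE 0.13), which did not pass in limma (adjusted p 0.124). Between genotypes Fosb differed by −0.10 (SE 0.26).

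The JUN members, the obligate partners of FOS, did not all do the same. Jund, a JUN gene expressed in resting cells too, was 10.30 (array 1) and 10.82 (array 2) in WT and 10.20 (array 1) and 11.07 (array 2) under the Hif1a-/- label. Junb, which can restrain JUN and limits expansion of mouse myeloid cells, was 8.47 and 9.09 in WT and 8.54 and 9.05 under the Hif1a-/- label. For both genes the arrays numbered 2 stood above those numbered 1 without overlap. The number difference was 0.70 (SE 0.15) for Jund and 0.56 (SE 0.13) for Junb, with adjusted p-values of 0.0708 and 0.0869 in limma, neither of which passed. Without the genotype term both passed (0.0388 and 0.0415), and Junb also under cyclic loess (0.0405).

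Jun was the exception among the JUN genes. Its signal was 9.47 in WT array 1 and 10.13 in WT array 2, with 9.53 (array 1) and 9.41 (array 2) under the Hif1a-/- label. A single array, WT array 2, stood above the other 3, so neither the numbers nor the genotypes separated. The number difference was 0.27 (SE 0.21, adjusted p 0.672 in limma), made up of 0.66 in WT and −0.12 under the Hif1a-/- label. The genotype difference was −0.33 (SE 0.26), 0.06 within number 1 and −0.72 within number 2. Without WT array 2 the genotype difference of Jun was 0.00, and the number difference was −0.09.

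Among the EGR members, none passed the test between numbers. Egr1 was 8.58 (array 1) and 8.92 (array 2) in WT and 8.45 (array 1) and 8.86 (array 2) under the Hif1a-/- label. Egr2, which acts in myeloid and lymphoid cells beside the nervous system, was 8.49 and 8.76 in WT and 8.42 and 8.80 under the Hif1a-/- label. Egr3, a lymphocyte activation gene, was 8.66 and 8.94 in WT and 8.91 and 9.21 under the Hif1a-/- label. In each of these the arrays numbered 2 lay above those numbered 1, for Egr3 by a narrow margin, as the Hif1a-/- array 1 (8.91) nearly reached WT array 2 (8.94). The number differences were 0.38 (SE 0.13) for Egr1, 0.33 (SE 0.13) for Egr2 and 0.30 (SE 0.13) for Egr3, with limma's adjusted p above 0.05 in each (adjusted p 0.214, 0.279 and 0.328). Between genotypes Egr1 differed by −0.09 (SE 0.22) and Egr2 by −0.02 (SE 0.20). Egr3 was 0.26 higher in the mean under the Hif1a-/- label (SE 0.18), with 0.25 within number 1 and 0.27 within number 2, and did not pass (unadjusted p 0.226 in limma).

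The Ier genes went opposite ways. Ier2, a nuclear protein gene induced by serum, was 9.12 (array 1) and 9.31 (array 2) in WT and 9.15 (array 1) and 9.52 (array 2) under the Hif1a-/- label. Ier3, an NF-kB and p53 responsive gene that affects survival and ERK signalling, was 9.09 and 8.62 in WT and 8.74 and 8.54 under the Hif1a-/- label. The arrays numbered 2 were thus the higher ones for Ier2 and the lower ones for Ier3, with no overlap in either gene. The number differences were 0.28 (SE 0.13) for Ier2 and −0.34 (SE 0.14) for Ier3, with adjusted p-values of 0.386 and 0.314 in limma. Between genotypes Ier2 differed by 0.11 (SE 0.18) and Ier3 by −0.22 (SE 0.21).

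**Figure D2:**
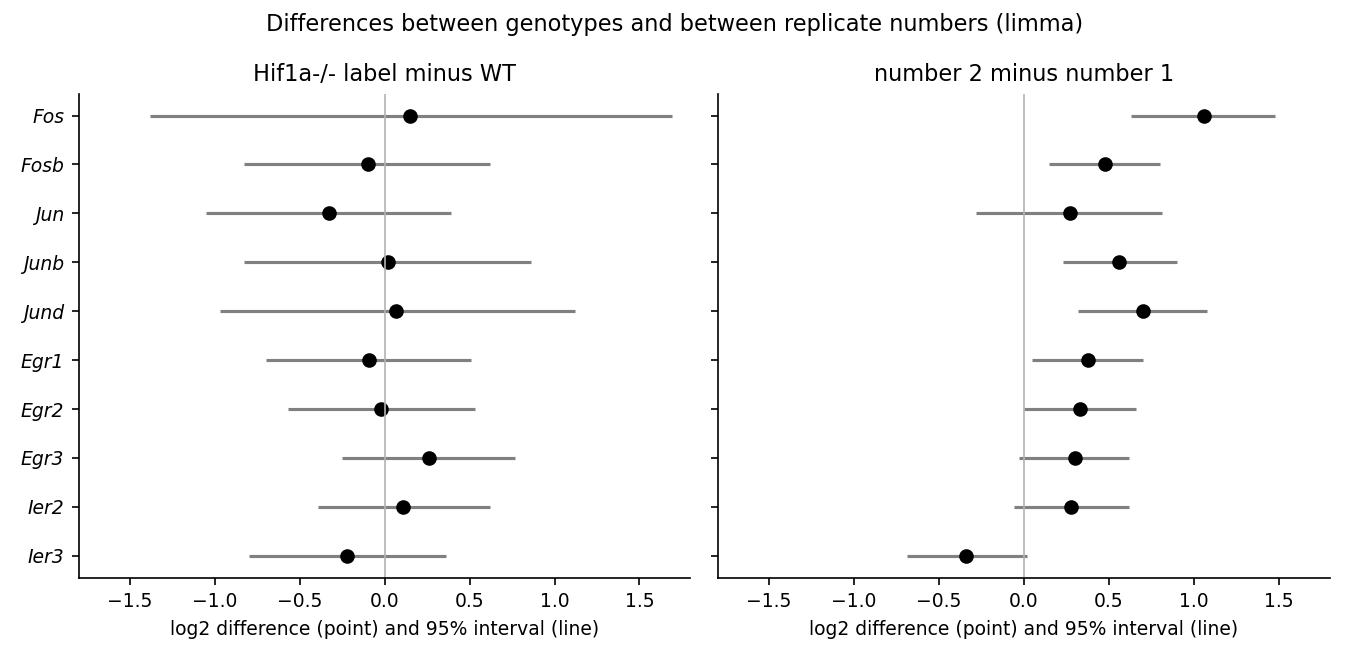
Log2 differences (points) with 95% intervals (lines) from limma for the 10 genes, Hif1a-/- label minus WT on the left and number 2 minus number 1 on the right. On the left every interval includes 0, and on the right Fos has the largest difference (1.06) and Ier3 the single negative one (−0.34).

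The members were chosen with earlier results of these data known, so their counts beside all genes are only a description. By count, 8 of the 10 members had both arrays numbered 2 above both numbered 1, against 20.4% of all genes. Ier3 alone was below in both, against 27.2% of all genes, and Jun overlapped. The members' median number difference was 0.35 log2 units, and that of all genes −0.02. Within a genotype, number 2 was higher for 9 of 10 members in WT (47.4% of all genes) and for 8 of 10 under the Hif1a-/- label (44.6%). The 8 and the 1 were the same counts under quantile normalization and median centring, and under cyclic loess they were 9 and 1. Averaging probe sets could not change these counts, because each member had 1 probe set. Myeloid and mast cell markers were higher, and stem cell markers lower, in these same arrays, and their part in the members' difference was not tested.

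**Figure D3:**
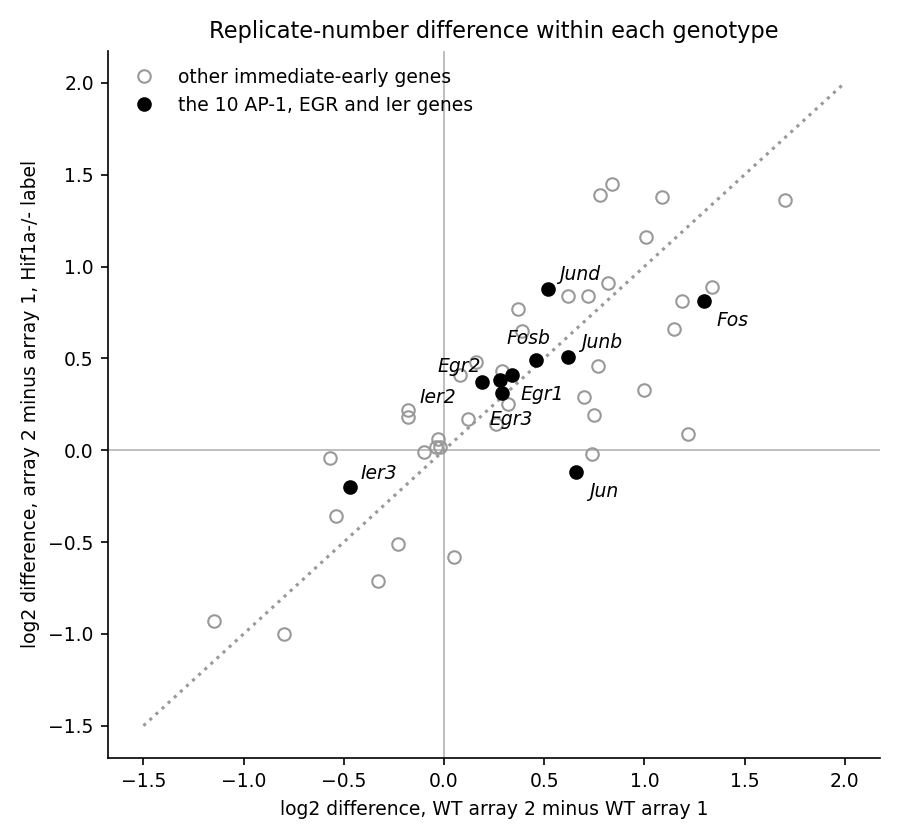
Log2 difference of array 2 minus array 1 in WT (horizontal axis) and under the Hif1a-/- label (vertical axis) for the 10 genes (filled) and 38 other immediate-early genes (open), with a dotted line of equality. Of the filled points, 8 lie at upper right, Ier3 at lower left (−0.47 and −0.20) and Jun at lower right (0.66 and −0.12).

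Other immediate-early genes were also mostly higher in the arrays numbered 2. Of 38 measured, 22 were above and 6 below in both arrays numbered 2, with a median difference of 0.36. In limma 11 passed as higher and 2 as lower, together 34.2% against 5.56% of all genes. This list too was chosen with earlier results of these data known. Sgk1, a serum- and glucocorticoid-induced kinase gene, rose by 1.53 (SE 0.15, adjusted p 0.00996), from 7.79 and 8.52 in the arrays numbered 1 (WT, then Hif1a-/- label) to 9.50 and 9.87 in those numbered 2. The zinc-finger gene Klf6 rose by 1.23 (SE 0.14, adjusted p 0.0150). Some genes moved the other way: Dusp2, a phosphatase of MAP kinases, fell by 1.04 (SE 0.14, adjusted p 0.0200), and Zfp36l2, an mRNA-decay factor, fell by 0.90 (SE 0.14, adjusted p 0.0279). Between genotypes limma called 0 of the 38. The smallest unadjusted p, and the 1 below 0.05, was that of the neutrophil chemokine gene Cxcl2 (0.0334), at 6.46 and 6.44 in WT and 6.77 and 6.79 under the Hif1a-/- label. Zfp36 gave a genotype difference of 0.33 and Rhob of −0.51, and neither passed.

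The wider AP-1 family was mixed. Of 14 other genes (FOS, BATF, ATF and MAF genes and Jdp2), 6 were above and 3 below in both arrays numbered 2, and their median was 0.09. Batf3, an AP-1 gene needed for cross-presenting dendritic cells in mice, was the 1 that passed, rising by 0.99 (SE 0.15, adjusted p 0.0267 in limma) from 8.77 and 8.78 to 9.60 and 9.94. The stress-induced Atf3 was 0.61 higher (SE 0.13, adjusted p 0.0694). Atf7 and Mafk differed by −0.55 and −0.41 and did not pass. The fourth EGR gene, Egr4, and the EGR corepressor genes Nab1 and Nab2 gave number differences of 0.02, −0.08 and −0.17, and together with Wt1 all 4 overlapped between the numbers. Between genotypes 0 of these 18 genes passed or had an unadjusted p under 0.05.

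Genes upstream of the members were mixed. Of 16 measured genes of the MAP kinase and SRF route, 4 were above and 7 below in both arrays numbered 2, with a median of −0.11. Srf itself was 0.30 higher (adjusted p 0.364), while its cofactor genes Elk3 and Mrtfb fell by 0.84 (SE 0.15, adjusted p 0.0433) and 0.71 (SE 0.13, adjusted p 0.0489) in limma. Feedback inhibitors that ERK signalling induces, the Spry, Spred and Dusp4, Dusp6 and Dusp7 genes, were above in both arrays numbered 2 for 1 of 9 and below for 6, with a median of −0.20 and 0 passing (2 at an unadjusted p under 0.05). Spred1 and Spred3 differed by −0.39 and −0.43, and Spry4 by 0.14. Heat shock and stress genes were above for 8 of 11 and below for none, with a median of 0.22, and Hspa1a, the inducible HSP70 gene, passed as the 1 call (0.76, SE 0.13, adjusted p 0.0401). Between genotypes 0 genes of these lists passed or had an unadjusted p under 0.05.

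**Figure D4:**
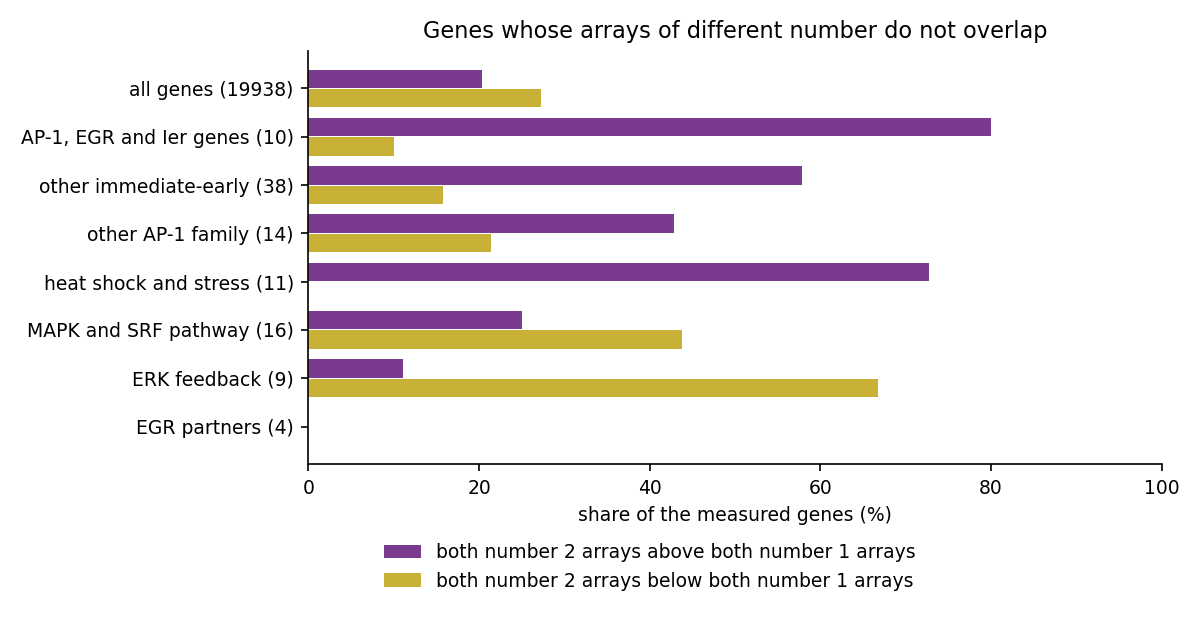
Share of the measured genes of each list (number in brackets) whose arrays numbered 2 both lie above, or both below, the arrays numbered 1, in percent, with all genes on top. The 10 members (80.0% above) and other immediate-early genes (57.9%) exceed all genes (20.4%), while ERK feedback genes lie mostly below (66.7% against 27.2%).

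The members' profiles over the 4 arrays were compared by the root-mean-square distance between signals centred on each gene's mean, which with 4 arrays is a description. The genes nearest to Fos among 9959 non-member genes over the median signal were Ptgr1 (0.014), Cst3 (0.050), St6gal1 (0.055), Pmaip1 (0.068) and Cycs (0.069). Cst3, for example, was 12.92 (array 1) and 14.09 (array 2) in WT and 13.21 (array 1) and 14.05 (array 2) under the Hif1a-/- label. The nearest member to Fos was Junb (0.271), at rank 556 of 19937 genes, followed by Jund (0.277), and Ier3 was the farthest (0.744). Nearest to Egr1 were Sirt2 and Zfand3 (0.013 each), Socs3 (0.017), Habp4 (0.023) and Tmem30a (0.024). Egr2 (0.045) and Fosb (0.051) were the members nearest to Egr1, at ranks 42 and 72, and Fos was the farthest (0.388).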

How the data were processed

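Amplified, biotin-labelled RNA was hybridised to 4 Affymetrix whole-transcript arrays, per the labels' protocols. Per the submitters' processing notes, the authors used RMA in Expression Console 1.1. The values they deposited range from 3.08 to 14.88 and were read as log2 signal. RMA sets the arrays to a common distribution, so a change shared by all genes would be removed. Promoter coordinates are those of the RefSeq table. The number of arrays limits the precision, and array medians lay between 8.19 and 8.35.

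Of 35556 probe sets, 21789 had 1 gene symbol, 1621 had several and 12146 were not listed in the platform annotation. Where several probe sets shared a symbol, the brightest by its 4-array mean stood for the gene, giving 19938 genes, with no filter on low signal. The median of the 4-array means over these genes was 8.56. Fos, Fosb, Junb, Egr1 and Egr2 lay near it in the arrays numbered 1, as did Egr3 in WT array 1 (8.66), and Cxcl2 lay below it. In the arrays numbered 2, Egr1 and Egr2 (8.76 to 8.92) stayed close to it, and Ier3 was 8.62 and 8.54. Arrays were grouped by title, and 0 columns of other samples were present. limma 3.58.1 in R 4.3.3 (lmFit, eBayes, two-sided) compared genotypes with no covariate and replicate numbers with genotype as a covariate. The latter fit leaves 1 residual degree of freedom. p-values were adjusted over all genes by Benjamini-Hochberg, with a threshold of 0.05. The fits were also run on simulated data with independent noise between arrays. For the genotype fit these held no difference between numbers, unlike the real arrays, so they do not check that fit here.

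Named genes are the members, Hif1a, up to 2 genes per direction and list with the smallest p, and the 5 genes nearest to Fos and to Egr1. The members and lists were chosen with earlier results of these data known. Srf and Kit were added for their role after their values were seen. List genes without a matched probe set were not analysed here. Alternatives were the replicate block, leaving out each array, 3 normalizations, a filter removing the dimmest 40% of genes, probe sets averaged or each tested separately, a trended robust eBayes, and no genotype term.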

Additional observations from a re-analysis of the deposited data

Results flagged for a closer look

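Jun had number differences of opposite sign in the genotypes, 0.66 in WT and −0.12 under the Hif1a-/- label. The second minus the first is −0.78 log2 units. With 1 array per number and genotype, this difference was not tested.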

How the results depend on the processing

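Each genotype carried 2 arrays, and this limits every value here. Between genotypes 0 genes passed under all 12 alternatives, the replicate block included (0 genes, 478 at an unadjusted p under 0.05, and 0.15 for Fos). With the replicate block no call of the members changed. Deviations of the arrays numbered 1 from their genotype means correlated at 0.669 across genes, but 2 pairs do not establish pairing. The members' median genotype difference was −0.25 to 0.22 with an array left out. Differences whose sign turned with an array left out were those of Fos (−0.49 to 0.80), Fosb (−0.35 to 0.14), Junb (−0.30 to 0.33), Jund (−0.37 to 0.51), Egr1 (−0.30 to 0.11), Egr2 (−0.21 to 0.17), Ier2 (−0.07 to 0.30), Ier3 (−0.46 to 0.02) and Hif1a (−0.38 to 0.23). Hif1a also turned under quantile normalization (0.02) and cyclic loess (0.03), and the cause was not tested.

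Between numbers, 1108 genes passed, 0 with every probe set tested on its own (4093 at an unadjusted p under 0.05), and 319 to 4661 with an array left out. The lowest count was without WT array 1 (319), then without array 1 labelled Hif1a-/- (458), and the highest without WT array 2 (4661) and without array 2 labelled Hif1a-/- (4602). Such fits use 1 term on 3 arrays, so the lone array of a group is assumed to vary like the other group. The members' median number difference was 0.36 to 0.46 with an array left out, and that of Jun −0.09 to 0.63. Fos ranged from 0.86 to 1.25. Without array 2 labelled Hif1a-/-, Fosb, Jun, Junb, Jund and Egr1 passed beside Fos. Without WT array 2, Fosb, Junb, Jund, Egr3 and Ier2 passed beside Fos.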
